A study of Danio rerio with 12 samples.

Results

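Homeobox patterning genes were examined on 12 expression arrays from zebrafish (Danio rerio) embryos in which the guidance molecules Sema6A or PlexinA2 had been targeted. Members were the rows of the deposited table whose gene symbol began with a family name of homeobox or paired box genes (hox, nkx, dlx, irx, lhx, pax, otx, meis, pbx, msx, barhl, emx, cdx, gbx, pitx, isl, en1 or en2, and the sine oculis genes such as six7). That rule matched 53 of 5134 rows. SIX3 and LHX2 were left out by the rule, which left 51 members. They were sorted by known expression at somite stages into 14 head rows, 18 trunk rows (17 hox rows and cdx4) and 15 rows of genes expressed in both head and trunk, in the heart or broadly. The other 4 rows, PAXIP1, pbxip1a, pbxip1b and ISLR, match by name only and encode no homeobox or paired box factor. The trunk list is not of the trunk alone: 6 of its hox rows are of paralogue groups 1 to 4, which also act in the hindbrain. Head rows were placed by gene symbol and their expression outside the head was not checked here, so that list may not be of the head alone. Of the 51 symbols, 32 are written in capitals as for human genes, and these do not say which zebrafish paralogue a row measures; EN2 stands on 2 rows. No row of the table was dropped for a low value.

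All embryos were of the rx3:GFP line, in which a green fluorescent reporter marks the cells of the early eye field, and were kept at 25 °C until they had 18 somites. The sample labels give the stage as 18 hours post-fertilization. Each group had 4 arrays, and the labels call these biological replicates; whether each came from a clutch of its own is not given, so the p-values measure the spread between these samples. Sema6A morphants and plexinA2 morphants had each received, at the one-cell stage, a morpholino, an antisense oligonucleotide that blocks translation or splicing of the RNA it pairs with. Controls are labelled wild-type and are titled UIC, which the labels do not spell out. No injection is named for the controls, so the effect of a morpholino's target and the effect of injection cannot be told apart in these comparisons. Rows for the targeted genes were not analysed here.

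Homeobox genes encode transcription factors that give cells their position in the embryo. Otx, Emx, Pax6 and Nkx2.1 factors act in the forebrain and eye field, and Pax2 and Engrailed factors act at the boundary of midbrain and hindbrain. Hox genes lie in clusters whose order along the chromosome follows their order along the body, with low paralogue groups in the hindbrain and high ones in the tail, and Cdx factors help to switch them on in the posterior body. Irx, Nkx6, Nkx2.9, Pax3 and Pax7 factors set up progenitor domains of the neural tube, while Pax1 and Pax9, which carry a paired box but no homeobox, act in the sclerotome, which forms the vertebrae, and in the pharyngeal pouches.

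Array medians ran from 608 to 708 intensity units, and the 2 arrays least like the others were control replicate 2, with a mean rank correlation of 0.835, and sema6A replicate 1, with 0.876; the other arrays had 0.907 to 0.932. Of 12 rows of p53 response genes, 10 rose in the sema6A morphants and 10 in the plexinA2 morphants, with median log2 differences from control of 1.94 and 2.22. Over all rows 1.99% rose in sema6A morphants and 2.61% in plexinA2 morphants. Neural markers (7 rows) had array levels of 0.46 to 0.58 in controls, −1.41 to −0.01 in sema6A morphants and −0.35 to 0.30 in plexinA2 morphants, where a level is the median log2 deviation of a list's rows from their own means over all arrays. Muscle and somite markers (11 rows) had levels of −0.39 to 0.91, −2.15 to −0.07 and 0.63 to 0.80 in the same order. For blood markers (8 rows) the levels were 0.08 to 1.09, −1.59 to −0.10 and 0.05 to 0.44. For neural and blood markers every sema6A array lay below every control, and for neural markers every plexinA2 array did so too. For muscle markers the sema6A arrays overlapped the controls and lay below all plexinA2 arrays. No marker row was at 0. In sema6A morphants 3 blood rows (hbae1.3, gata1a and alas2) and 1 neural row (FABP7) fell, against 1.13% of all rows, and no muscle row passed. In plexinA2 morphants none of these rows passed, and none of 3 neural crest rows passed in either. The FABP7 call was lost in 9 of 12 fits without an array (adjusted p of up to 0.0808; it held without control replicate 2 or 3 or sema6A replicate 4), gata1a without sema6A replicate 3 (0.0522) and alas2 without sema6A replicate 2 (0.0572). Without the plexinA2 arrays these 3 rows were at 0.126, 0.067 and 0.0995 (limma, n = 4 per group). The part of these markers and of the p53 response genes in the homeobox results was not tested. The RNA came from embryos, so fewer cells of a type and less RNA per cell cannot be told apart.

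In sema6A morphants most head rows and most trunk rows lay lower than in controls; whether head and trunk differed in this was not tested. The median log2 difference was −0.35 over the head rows, −0.35 over the trunk rows and −0.63 over the rows of both regions, beside 0.06 over all 5134 rows. Of the 51 members, 44 had a difference below 0, against 45.1% of all rows. With control replicate 2 and sema6A replicate 1 both left out, the medians were −0.29 for head rows and −0.54 for trunk rows, and 42 of 51 members lay below 0. In plexinA2 morphants, set against the same controls, the medians were −0.11 for head rows, 0.08 for trunk rows and −0.07 for the rows of both regions, beside 0.04 over all rows, and 26 of 51 members lay below 0, against 46.6% of all rows. That count was 32 after quantile normalization and 34 after median centring, where the medians of all rows were −0.057 and −0.065. It was 36 with array weights, where the median of all rows was 0.081. The trunk median in plexinA2 morphants had no stable sign: it was −0.03 after median centring, −0.11 with array weights, −0.02 without plexinA2 replicate 1, −0.04 without control replicate 2 and −0.01 without control replicate 4. Without the hox rows of groups 1 to 4, the trunk median was −0.326 in sema6A morphants and −0.125 in plexinA2 morphants.

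Array by array, the head rows had levels of 0.32, 0.23, 0.38 and 0.19 in control replicates 1 to 4, a mean of 0.28 ± 0.09 (SD, n = 4). In sema6A morphants the head levels were −0.76, −0.13, −0.10 and −0.21, and in plexinA2 morphants 0.16, 0.04, 0.22 and −0.04. Every sema6A array lay below every control array for the head rows, and sema6A replicate 1 lay far below the rest of its group. This was not particular to head rows. Rows of both regions had levels of 0.083 to 0.365 in controls and −0.806 to −0.124 in sema6A morphants. For 31 rows of homeobox genes outside the name rule, the levels were 0.175 to 0.222 and −0.436 to −0.094. Trunk rows had levels of 0.36, −0.37, 0.21 and 0.01 in controls, −0.41, −0.01, −0.22 and −0.40 in sema6A morphants, and 0.20, 0.31, 0.25 and 0.08 in plexinA2 morphants. The trunk level of the controls spread widely and overlapped both morphant groups, while all sema6A arrays lay below all plexinA2 arrays. The head level minus the trunk level averaged 0.22 ± 0.27 in controls, −0.04 ± 0.25 in sema6A morphants and −0.12 ± 0.11 in plexinA2 morphants (SD, n = 4 each). The 3 groups overlapped in that balance of the head list over the trunk list, which holds hindbrain genes too. The head list may likewise not be of the head alone.

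**Figure D1:**
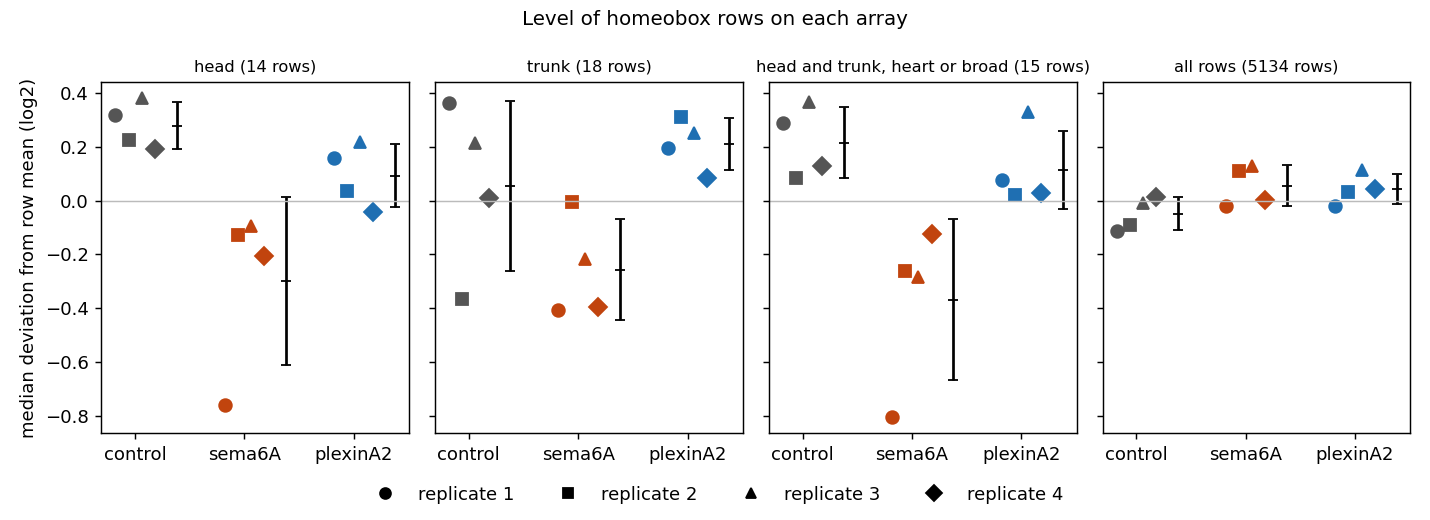
Level of the head, trunk and mixed homeobox rows, and of all rows, on each of 12 arrays: the y axis is the median log2 deviation of the rows from their own means over the arrays, symbols are replicates 1 to 4, and black bars are the mean ± SD of 4 arrays. Head rows of the sema6A morphants run from −0.76 to −0.10, below all controls, while trunk rows of the controls spread from −0.37 to 0.36. Mixed rows of the sema6A morphants also lie below all controls.

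**Figure D2:**
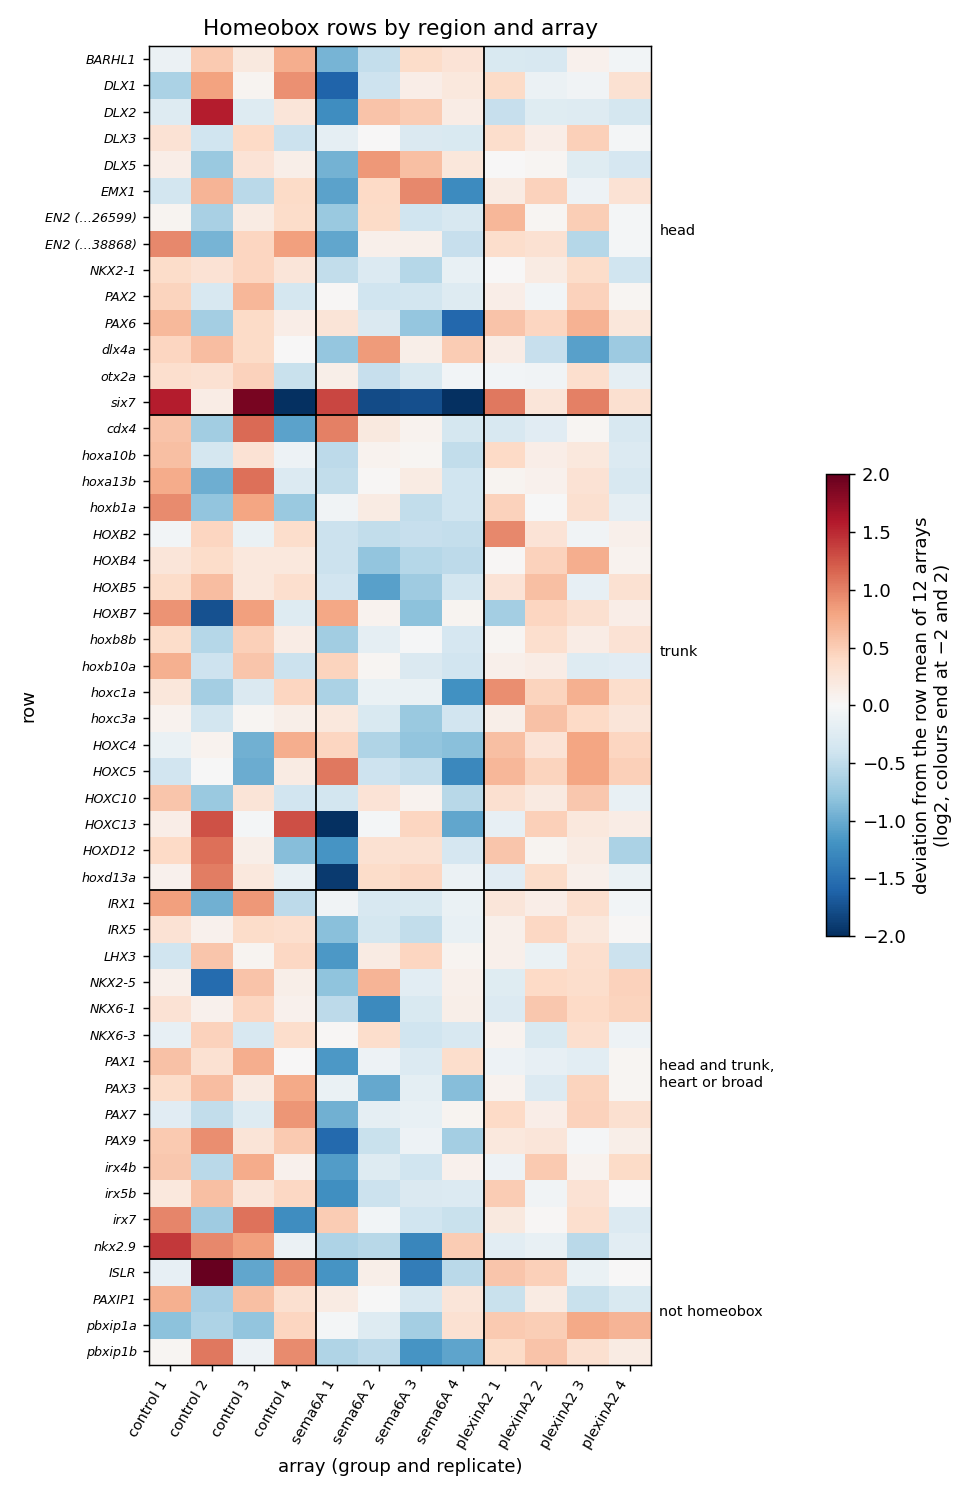
Log2 deviation of 50 of the 51 rows (y axis, ordered by region and, within the trunk, by hox letter and paralogue group) from its mean over 12 arrays (x axis); red is above and blue below the row mean, and colours end at −2 and 2. Blue prevails in the sema6A columns, where 44 rows had a mean below that of the controls, and control replicates 1 and 3 often differ from 2 and 4.

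In sema6A morphants, 2 of 51 rows fell at an adjusted p under 0.05 and none rose (limma's moderated test with Benjamini-Hochberg adjustment over all 5134 rows, n = 4 per group). Each SE and p from this fit rests on a single estimate of a row's spread over all 3 groups. Over all rows 3.12% were called, 1.13% lower and 1.99% higher, beside 3.92% of the members. The called rows were PAX9 and the name-only row pbxip1b. At an unadjusted p under 0.05, 14 members differed (27.5%, against 20.6% of all rows) and all 14 were lower, against 8.71% of all rows lower at that p; they were 1 head row, 4 trunk rows, 7 rows of both regions and 2 name-only rows. In 9 members (17.6%, against 3.78% of all rows) every sema6A array lay below every control array. In 0 members did every sema6A array lie above, against 7.11% of all rows. In plexinA2 morphants 0 of 51 rows were called, against 2.86% of all rows, where 0.253% were lower and 2.61% higher. At an unadjusted p under 0.05, 5 members differed (9.8%, against 17.2% of all rows). The lower ones were dlx4a and nkx2.9, against 5.69% of all rows, and the higher ones hoxc1a, HOXC5 and pbxip1a, against 11.6%.

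Among the head rows, NKX2-1, a gene of the ventral forebrain and hypothalamus, was the only row whose sema6A arrays all lay below the controls. Its log2 intensities were 8.81, 8.74, 8.88 and 8.69 in controls, 7.96, 8.18, 7.88 and 8.30 in sema6A morphants, and 8.45, 8.61, 8.81 and 8.05 in plexinA2 morphants. The controls were tightly grouped, and the plexinA2 values overlapped both other groups. The log2 difference of −0.70 ± 0.26 (SE) between sema6A morphants and controls had an adjusted p of 0.138 in limma (n = 4 per group) and did not pass.

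PAX6, a central gene of eye and forebrain development, had log2 intensities of 12.47, 11.14, 12.21 and 11.96 in controls, 12.08, 11.54, 11.05 and 10.26 in sema6A morphants, and 12.39, 12.25, 12.52 and 12.05 in plexinA2 morphants. The sema6A values reached both into and below the range of the controls, and the plexinA2 values lay in its upper part or just above it. The log2 difference was −0.72 ± 0.37 in sema6A morphants (adjusted p = 0.279) and 0.35 ± 0.37 in plexinA2 morphants (adjusted p = 0.658; limma, n = 4 per group). In sema6A morphants PAX6 passed in 0 of 12 fits without a single array (limma, adjusted p 0.116 to 0.552). It passed in 2 of 9 other settings: array weights, where 27.4% of all rows passed, and without control replicate 2 and sema6A replicate 1 together. For six7, a homeobox gene of the zebrafish eye field and retina, the log2 intensities were 9.47, 8.06, 9.81 and 5.91 in controls, 9.24, 6.11, 6.14 and 5.88 in sema6A morphants, and 8.96, 8.14, 8.91 and 8.22 in plexinA2 morphants. Control replicate 4 and sema6A replicates 2 to 4 were low, and the remaining arrays stood at 8.06 or above. Its log2 difference of −1.47 ± 0.73 in sema6A morphants had an adjusted p of 0.262 in limma (n = 4 per group).

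The forebrain and midbrain gene otx2a had log2 intensities of 10.51, 10.47, 10.63 and 9.72 in controls, 10.29, 9.70, 9.86 and 10.12 in sema6A morphants, and 10.12, 10.10, 10.51 and 9.99 in plexinA2 morphants. All 3 groups overlapped, with log2 differences from control of −0.34 ± 0.29 and −0.15 ± 0.29. EMX1, of the dorsal forebrain, and BARHL1, of developing brain neurons, also overlapped between groups, with sema6A differences of −0.29 and −0.53. At the boundary of midbrain and hindbrain, PAX2 differed by −0.37 in sema6A morphants and 0.04 in plexinA2 morphants. The 2 EN2 rows differed by −0.25 and −0.64 in sema6A morphants and by 0.30 and −0.30 in plexinA2 morphants, so the rows were opposite in sign in the latter. None of these differences passed (limma, adjusted p 0.373 to 0.767 in sema6A morphants, n = 4 per group).

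The dlx genes, which act in the ventral forebrain, the branchial arches and the ectoderm around the neural plate, were less uniform. In sema6A morphants the log2 differences were −0.70 for DLX1, −0.32 for DLX2, −0.16 for DLX3, −0.18 for dlx4a and 0.24 for DLX5, the only head row above 0. The head row with the smallest p in plexinA2 morphants was dlx4a, at 8.86, 9.05, 8.82 and 8.44 in controls, 7.66, 9.29, 8.56 and 8.95 in sema6A morphants, and 8.59, 7.97, 7.35 and 7.71 in plexinA2 morphants on the log2 intensity scale. Of its plexinA2 arrays, 3 lay below all controls and replicate 1 did not. The log2 difference was −0.89 ± 0.35, with an adjusted p of 0.211 (limma, n = 4 per group). Without the 5 dlx rows the head median was −0.53 in sema6A morphants and 0.035 in plexinA2 morphants.

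Hox rows of paralogue groups 1 to 4, which pattern the hindbrain and anterior spinal cord, had the largest median difference between the morphants among the hox paralogue classes. All 6 rows had a log2 difference below 0 in sema6A morphants (median −0.41) and above 0 in plexinA2 morphants (median 0.27). After median centring the plexinA2 median was 0.17, and HOXB4 and hoxb1a turned to −0.05 and −0.01. With array weights that median was 0.259 and 2 rows lay below 0, among them hoxb1a, which passed (limma, adjusted p = 0.0418). Without single arrays HOXB2, HOXB4 and hoxb1a reached −0.043, −0.075 and −0.179 in plexinA2 morphants. The level over the 6 rows averaged 0.06 ± 0.20 in controls, −0.42 ± 0.12 in sema6A morphants and 0.41 ± 0.18 in plexinA2 morphants (SD, n = 4 each), and the sema6A arrays overlapped neither other group. Groups 5 to 8 (4 rows) had medians of −0.20 and 0.11, and groups 9 to 13 (7 rows), of the tail end of the body, had −0.33 and −0.16, in sema6A and plexinA2 morphants. With array weights the medians of groups 5 to 8 were −0.68 and −0.05 and the plexinA2 median of groups 9 to 13 was −0.46, and after median centring the plexinA2 median of groups 5 to 8 was 0.004. No hox row passed the adjusted threshold in either morphant group.

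**Figure D3:**
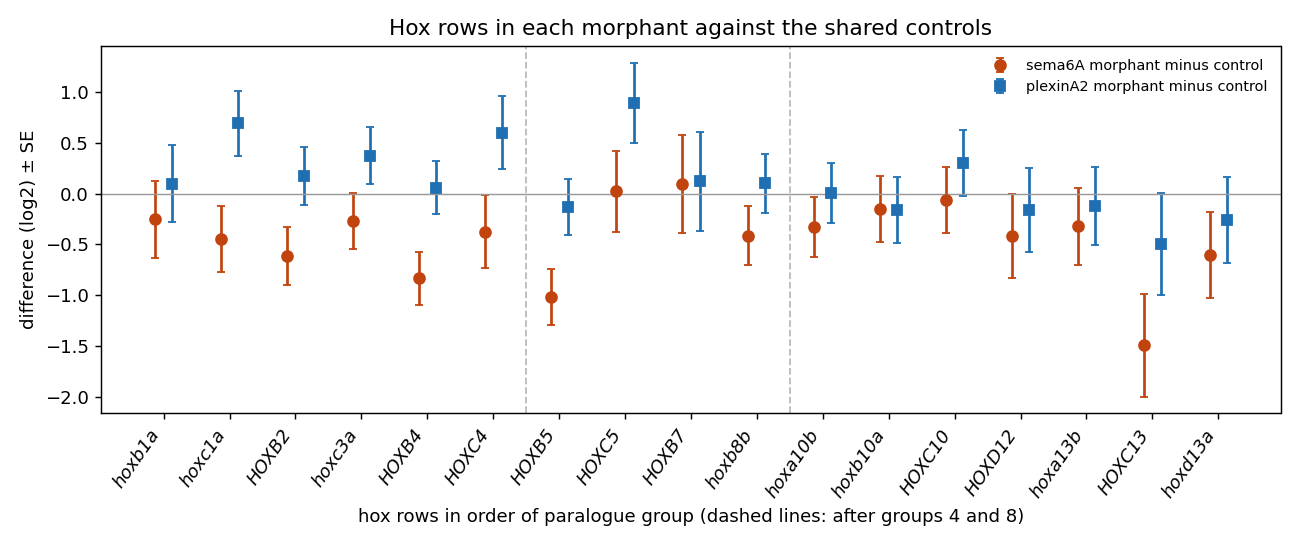
Log2 difference from the shared controls ± SE (y axis) for the 17 hox rows in order of paralogue group (x axis), in sema6A morphants (orange circles) and plexinA2 morphants (blue squares), with n = 4 arrays per group. HOXB5 at −1.02 and HOXC13 at −1.49 lie lowest in sema6A morphants, and HOXC5 at 0.89 lies highest in plexinA2 morphants.

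HOXB4 and HOXB5, both active in hindbrain and spinal cord, had the smallest p-values of the hox rows in sema6A morphants. HOXB5 had log2 intensities of 10.33, 10.58, 10.18 and 10.31 in controls, 9.59, 8.88, 9.25 and 9.60 in sema6A morphants, and 10.24, 10.57, 9.81 and 10.27 in plexinA2 morphants. HOXB4 had 11.97, 12.09, 11.94 and 11.94 in controls, 11.29, 10.94, 11.16 and 11.21 in sema6A morphants, and 11.75, 12.19, 12.45 and 11.79 in plexinA2 morphants. In both rows every sema6A array lay below every control and every plexinA2 array. HOXB5 was 2.02-fold lower in sema6A morphants than in controls, a log2 difference of −1.02 ± 0.28 with an adjusted p of 0.0528, just outside the threshold (limma, n = 4 per group). It passed in 6 of 9 other settings, among them median centring (adjusted p = 0.0474). Of 12 fits that left out an array it passed in 1, the fit without sema6A replicate 4 (adjusted p = 0.0456). The adjusted p for HOXB5 was up to 0.164 in the other settings and up to 0.17 without single arrays. HOXB4 was 1.78-fold lower, at −0.83 ± 0.26 with an adjusted p of 0.081 (limma, n = 4 per group).

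HOXB2, a gene of hindbrain segments, had log2 intensities of 10.57, 11.05, 10.48 and 10.97 in controls, 10.18, 10.12, 10.16 and 10.14 in sema6A morphants, and 11.58, 10.89, 10.55 and 10.72 in plexinA2 morphants. The sema6A arrays were nearly equal and lay below both other groups, with a log2 difference from control of −0.61 ± 0.28 (limma, adjusted p = 0.228, n = 4 per group). The row for hoxb1a, which specifies the hindbrain segment of the facial motor neurons, stood at 11.53, 9.81, 11.38 and 9.85 in controls, 10.52, 10.75, 10.10 and 10.20 in sema6A morphants, and 11.05, 10.58, 10.92 and 10.42 in plexinA2 morphants. Controls 1 and 3 lay above all morphant arrays, and controls 2 and 4 below all of them.

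Among the other hoxb rows, hoxb8b had log2 intensities of 12.17, 11.23, 12.29 and 11.96 in controls, 11.11, 11.63, 11.78 and 11.47 in sema6A morphants, and 11.84, 12.15, 11.96 and 12.10 in plexinA2 morphants. HOXB7 had 8.78, 6.14, 8.71 and 7.62 in controls, 8.66, 7.96, 7.07 and 7.94 in sema6A morphants, and 7.20, 8.31, 8.21 and 8.02 in plexinA2 morphants. The row for hoxb10a stood at 11.18, 10.04, 11.01 and 10.03 in controls, 10.91, 10.50, 10.17 and 10.08 in sema6A morphants, and 10.56, 10.61, 10.21 and 10.24 in plexinA2 morphants. In these 3 trunk rows the controls enclosed or nearly enclosed the morphant values. Zebrafish have more than a single hoxb cluster, and the upper-case symbols do not say which a row belongs to. Over the 7 hoxb rows the median log2 difference was −0.41 in sema6A morphants and 0.10 in plexinA2 morphants, the latter −0.01 after median centring and −0.09 with array weights, with which the former was −0.80.

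Of the 6 hoxc rows, 5 had a log2 difference above 0 in plexinA2 morphants, HOXC13 differed by −0.50, and the median was 0.49; none passed, and with array weights 4 were above 0. HOXC5, of the trunk, had log2 intensities of 10.04, 10.41, 9.43 and 10.59 in controls, 11.47, 10.01, 9.94 and 9.13 in sema6A morphants, and 11.08, 10.86, 11.21 and 10.90 in plexinA2 morphants. Every plexinA2 array lay above every control, and the sema6A arrays spread over and beyond both groups. The log2 difference in plexinA2 morphants was 0.89 ± 0.40, with an adjusted p of 0.261 (limma, n = 4 per group). In 2 of the 51 rows, HOXC5 and pbxip1a, every plexinA2 array lay above every control, against 7.27% of all rows, and in 2, PAX9 and nkx2.9, every plexinA2 array lay below, against 4.48% of all rows.

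In plexinA2 morphants the anterior hoxc rows had the same sign as HOXC5. The row for hoxc1a had log2 intensities of 10.88, 9.98, 10.37 and 11.09 in controls, 10.03, 10.52, 10.52 and 9.45 in sema6A morphants, and 11.59, 11.10, 11.37 and 11.01 in plexinA2 morphants. For hoxc3a the values were 11.03, 10.59, 11 and 11.08 in controls, 11.17, 10.65, 10.21 and 10.58 in sema6A morphants, and 11.08, 11.55, 11.36 and 11.20 in plexinA2 morphants. HOXC4 had 8.16, 8.37, 7.33 and 9.02 in controls, 8.73, 7.69, 7.5 and 7.46 in sema6A morphants, and 8.90, 8.57, 9.08 and 8.73 in plexinA2 morphants. The plexinA2 arrays lay in the upper part of the control range or above it, and the sema6A arrays overlapped the controls in all 3 rows. The log2 differences were 0.69, 0.37 and 0.60 in plexinA2 morphants and −0.45, −0.27 and −0.37 in sema6A morphants, and none passed.

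At the posterior end, HOXC13 had log2 intensities of 8.87, 10.01, 8.69 and 10.02 in controls, 6.06, 8.69, 9.16 and 7.70 in sema6A morphants, and 8.57, 9.21, 8.94 and 8.89 in plexinA2 morphants. Sema6A replicate 1 was far lower than any other array. Its log2 difference of −1.49 ± 0.51 in sema6A morphants, the largest of any member in size, had an adjusted p of 0.107 (limma, n = 4 per group); without single arrays it ran from −1.91 to −0.88. HOXC10 had 11.20, 9.90, 10.91 and 10.26 in controls, 10.28, 10.93, 10.72 and 10.10 in sema6A morphants, and 10.97, 10.83, 11.19 and 10.50 in plexinA2 morphants. All 3 groups overlapped for HOXC10.

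Of the hoxd rows, hoxd13a had log2 intensities of 9.11, 10.05, 9.24 and 8.88 in controls, 7.12, 9.39, 9.44 and 8.91 in sema6A morphants, and 8.81, 9.39, 9.13 and 8.89 in plexinA2 morphants. HOXD12 had 11.18, 11.88, 10.90 and 9.92 in controls, 9.60, 11.09, 11.08 and 10.45 in sema6A morphants, and 11.33, 10.83, 10.95 and 10.14 in plexinA2 morphants. In both rows, genes of the posterior body and the fin buds, sema6A replicate 1 was the lowest array and the groups otherwise overlapped. The hoxa rows overlapped between all 3 groups: hoxa10b stood at 12.19, 11.23, 11.87 and 11.48 in controls, 11.06, 11.66, 11.62 and 11.09 in sema6A morphants, and 11.98, 11.72, 11.80 and 11.31 in plexinA2 morphants. For hoxa13b the values were 9.16, 7.44, 9.52 and 8.15 in controls, 7.93, 8.45, 8.58 and 8.03 in sema6A morphants, and 8.47, 8.51, 8.71 and 8.10 in plexinA2 morphants. The hoxa differences from control lay between −0.33 and 0.01 and did not pass.

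The Cdx gene cdx4, which acts upstream of posterior hox genes, had log2 intensities of 11.25, 9.99, 11.82 and 9.61 in controls, 11.69, 10.88, 10.76 and 10.34 in sema6A morphants, and 10.36, 10.46, 10.73 and 10.36 in plexinA2 morphants. The controls enclosed both morphant groups. Its log2 difference was 0.25 ± 0.42 in sema6A morphants and −0.19 ± 0.42 in plexinA2 morphants (limma, adjusted p = 0.792 and 0.852, n = 4 per group).

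Among the rows of both regions, PAX9 fell in sema6A morphants. It had log2 intensities of 8.24, 8.65, 7.97 and 8.24 in controls, 6.16, 7.27, 7.61 and 7.04 in sema6A morphants, and 7.93, 7.96, 7.69 and 7.84 in plexinA2 morphants. The sema6A arrays lay below both other groups and the plexinA2 arrays lay between, without overlap. The drop was 2.39-fold, a log2 difference of −1.26 ± 0.31 with an adjusted p of 0.033 (limma, n = 4 per group), while plexinA2 morphants differed by −0.42 ± 0.31 (adjusted p = 0.515). The call for PAX9 was lost in 7 of 12 fits that left out an array: without control replicate 1 (adjusted p = 0.0714) or 2 (0.0539), sema6A replicate 1 (0.0825) or 2 (0.0697), or plexinA2 replicate 2 (0.053), 3 (0.051) or 4 (0.0553). The adjusted p was 0.137 when plexinA2 arrays were left out of the fit. PAX9 was among the rows removed when the dimmest 25% of rows were left out, so that setting gave no call for it. PAX1, its partner in sclerotome and pharyngeal pouches, had log2 intensities of 9.10, 8.82, 9.23 and 8.51 in controls, 7.36, 8.41, 8.23 and 8.86 in sema6A morphants, and 8.40, 8.34, 8.30 and 8.55 in plexinA2 morphants. Its log2 differences were −0.70 ± 0.31 and −0.52 ± 0.31, and neither passed.

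PAX3, of the dorsal neural tube, neural crest and somites, had log2 intensities of 8.66, 8.91, 8.48 and 9.06 in controls, 8.16, 7.28, 8.11 and 7.44 in sema6A morphants, and 8.37, 8.03, 8.75 and 8.34 in plexinA2 morphants. Every sema6A array lay below every control, and the log2 difference was −1.03 ± 0.29 with an adjusted p of 0.0592 (limma, n = 4 per group). PAX3 passed in 0 of 12 fits without a single array (limma, adjusted p 0.0523 to 0.194). It passed in 2 of 9 other settings, array weights and the fit without control replicate 2 and sema6A replicate 1. PAX7, which acts in much the same tissues, differed by −0.29 in sema6A morphants and 0.36 in plexinA2 morphants, with overlap. The ventral neural tube gene nkx2.9 had log2 intensities of 9.32, 8.86, 8.72 and 7.78 in controls, 7.29, 7.35, 6.59 and 8.41 in sema6A morphants, and 7.69, 7.75, 7.36 and 7.69 in plexinA2 morphants. All plexinA2 arrays and 3 of the sema6A arrays lay below the lowest control. The log2 differences were −1.26 ± 0.37 (adjusted p = 0.0665) and −1.04 ± 0.37 (adjusted p = 0.163; limma, n = 4 per group). Without control replicate 4 the nkx2.9 row passed in both morphants (adjusted p = 0.0282 and 0.0366), and without sema6A replicate 4 it passed in sema6A morphants (adjusted p = 0.0179). Those were 2 of 12 fits without an array in sema6A morphants and 1 of 12 in plexinA2 morphants. In the other fits the adjusted p was up to 0.21 and 0.428. Of 9 other settings nkx2.9 passed only with array weights. Without control replicate 4, 3.54% of all rows passed in sema6A morphants and 6.35% in plexinA2 morphants.

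The Iroquois genes, which divide the neural plate and also act in the heart and other tissues, varied from row to row. The row for irx5b had log2 intensities of 12.01, 12.41, 12.05 and 12.22 in controls, 10.58, 11.37, 11.52 and 11.54 in sema6A morphants, and 12.32, 11.74, 12.10 and 11.82 in plexinA2 morphants. IRX5 had 10.28, 10.07, 10.36 and 10.32 in controls, 9.16, 9.64, 9.5 and 9.84 in sema6A morphants, and 10.09, 10.41, 10.21 and 10.02 in plexinA2 morphants. In both rows every sema6A array lay below every control and every plexinA2 array. Their log2 differences of −0.92 ± 0.29 and −0.72 ± 0.26 had adjusted p-values of 0.0808 and 0.123 (limma, n = 4 per group). The other rows, irx4b, IRX1 and irx7, differed by −0.63, −0.26 and −0.13 in sema6A morphants, with overlap.

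NKX6-1, of ventral progenitors that give rise to motor neurons, averaged 9.999 ± 0.171 in controls, 9.28 ± 0.59 in sema6A morphants and 10.05 ± 0.37 in plexinA2 morphants on the log2 intensity scale (SD, n = 4 each). The sema6A difference of −0.72 did not pass (limma, adjusted p = 0.205). LHX3, of motor neurons and the pituitary, and NKX6-3 differed by −0.27 and −0.17 in sema6A morphants. NKX2-5, of the heart, differed by 0.12 ± 0.41 in sema6A morphants and 0.42 ± 0.41 in plexinA2 morphants, and neither difference passed (limma, adjusted p = 0.904 and 0.63, n = 4 per group).

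**Figure D4:**
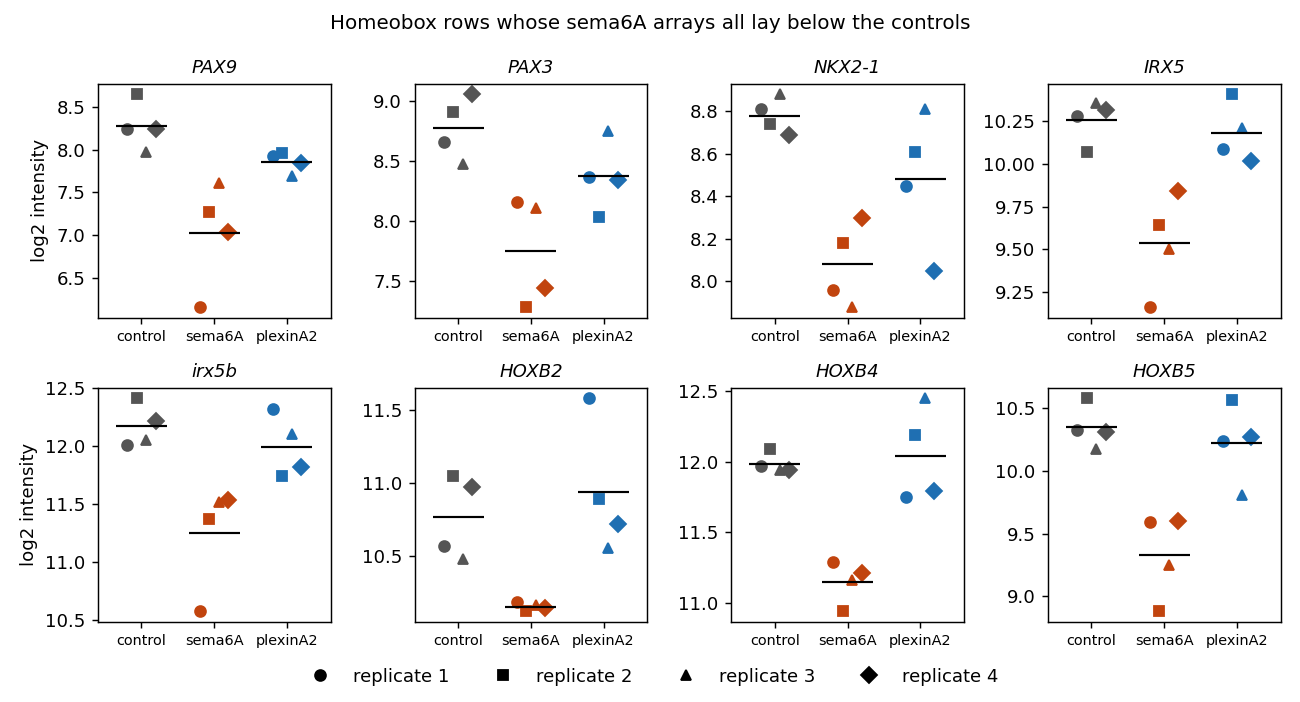
Log2 intensity (y axis) of 8 homeobox or paired box rows on each array of the 3 groups (x axis); symbols are replicates 1 to 4 and black lines are group means. The rows were chosen because all sema6A arrays lay below all controls, and only in PAX9 did all plexinA2 arrays also lie below the controls.

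Of the rows that match by name only, pbxip1b fell in sema6A morphants; its mammalian counterpart encodes a protein that binds Pbx factors, the partners of Hox proteins. It had log2 intensities of 7.97, 8.99, 7.84 and 8.88 in controls, 7.33, 7.41, 6.75 and 6.89 in sema6A morphants, and 8.32, 8.51, 8.26 and 8.10 in plexinA2 morphants. The sema6A arrays lay below both other groups. The drop was 2.5-fold, a log2 difference of −1.32 ± 0.31 with an adjusted p of 0.0261 (limma, n = 4 per group). The call for pbxip1b was lost without sema6A replicate 2 (adjusted p = 0.0516), sema6A replicate 3 (0.0985) or control replicate 4 (0.0581), and when plexinA2 arrays were left out of the fit (0.118).

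Its paralogue pbxip1a had log2 intensities of 9.82, 10.02, 9.84 and 11.06 in controls, 10.60, 10.38, 9.95 and 10.94 in sema6A morphants, and 11.16, 11.13, 11.39 and 11.32 in plexinA2 morphants. All plexinA2 arrays lay above all others, with a log2 difference from control of 1.07 ± 0.32 (limma, adjusted p = 0.0874, n = 4 per group). Of 12 fits without an array that row passed in 1, the fit without control replicate 4 (limma, adjusted p = 0.0135). In that fit 6.35% of all rows passed. Without other single arrays the adjusted p of pbxip1a was up to 0.263, and of 9 other settings it passed only with array weights. PAXIP1, a chromatin and DNA damage factor, had 10.90, 9.51, 10.79 and 10.50 in controls, 10.34, 10.18, 9.86 and 10.42 in sema6A morphants, and 9.74, 10.34, 9.73 and 9.87 in plexinA2 morphants. The groups overlapped for PAXIP1, and also for ISLR, a secreted protein with leucine-rich repeats, at a log2 difference of −1.26 in sema6A morphants (limma, adjusted p = 0.18, n = 4 per group).

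Set directly against plexinA2 morphants, sema6A morphants had lower values over most members. The log2 difference was below 0 in 44 of 51 rows, against 49.8% of all rows, with medians of −0.40 for head rows, −0.44 for trunk rows and −0.37 for the rows of both regions, beside 0.00 over all rows. No member passed (0 of 51, against 1.71% of all rows, 1.27% lower and 0.448% higher; limma, n = 4 per group). At an unadjusted p under 0.05, 16 members differed (31.4%, against 26.8% of all rows), and all 16 were lower, against 15.1% of all rows. They included 7 trunk rows, all of them hox rows of paralogue groups 1 to 5, and 2 head rows. In 12 members (23.5%, against 12.9% of all rows) every sema6A array lay below every plexinA2 array. In 0 members did every sema6A array lie above, against 10.8% of all rows.

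The smallest p-values between the morphants belonged to pbxip1b (log2 difference −1.20, adjusted p = 0.0535), hoxc1a (−1.14, adjusted p = 0.0634) and HOXB4 (−0.90, adjusted p = 0.067). HOXB5 differed by −0.89 (adjusted p = 0.0776), PAX6 by −1.07 (adjusted p = 0.0962) and HOXB2 by −0.79 (adjusted p = 0.107). Over hox groups 1 to 4 the median was −0.84, over groups 5 to 8 −0.69 and over groups 9 to 13 −0.34, the last turning to 0.03 with array weights. The largest positive difference was that of dlx4a, 0.71 (adjusted p = 0.205; limma, n = 4 per group). A fit without the controls called 7 members between the morphants (13.7%), against 14.5% of all rows in that fit.

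Members varied more among the controls than among the plexinA2 arrays. In controls, 15 of 51 members spanned over 1.5 on the log2 scale between their lowest and highest array, against 32.2% of all rows, in sema6A morphants 13, against 16.9%, and in plexinA2 morphants 0, against 1.48%. The median SD of the members was 0.53 in controls, 0.47 in sema6A morphants and 0.26 in plexinA2 morphants, near the values over all rows of 0.54, 0.42 and 0.30. Among head rows 7 of 14 spanned over 1.5 in sema6A morphants. Control replicates 1 and 3 were the highest pair of the 4 controls in 22 of 51 members (43.1%, against 25.7% of all rows), and replicates 2 and 4 in 16 (31.4%, against 27.2%). In irx7 the controls read 13.27, 11.58, 13.37 and 11.04 while all morphant arrays lay from 11.84 to 12.79. A like split of replicates 1 and 3 from 2 and 4 was seen in IRX1, cdx4, hoxb1a, hoxb10a, hoxa13b and PAX2, which were picked out after their values were seen. No label gives a batch for these arrays.

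**Figure D5:**
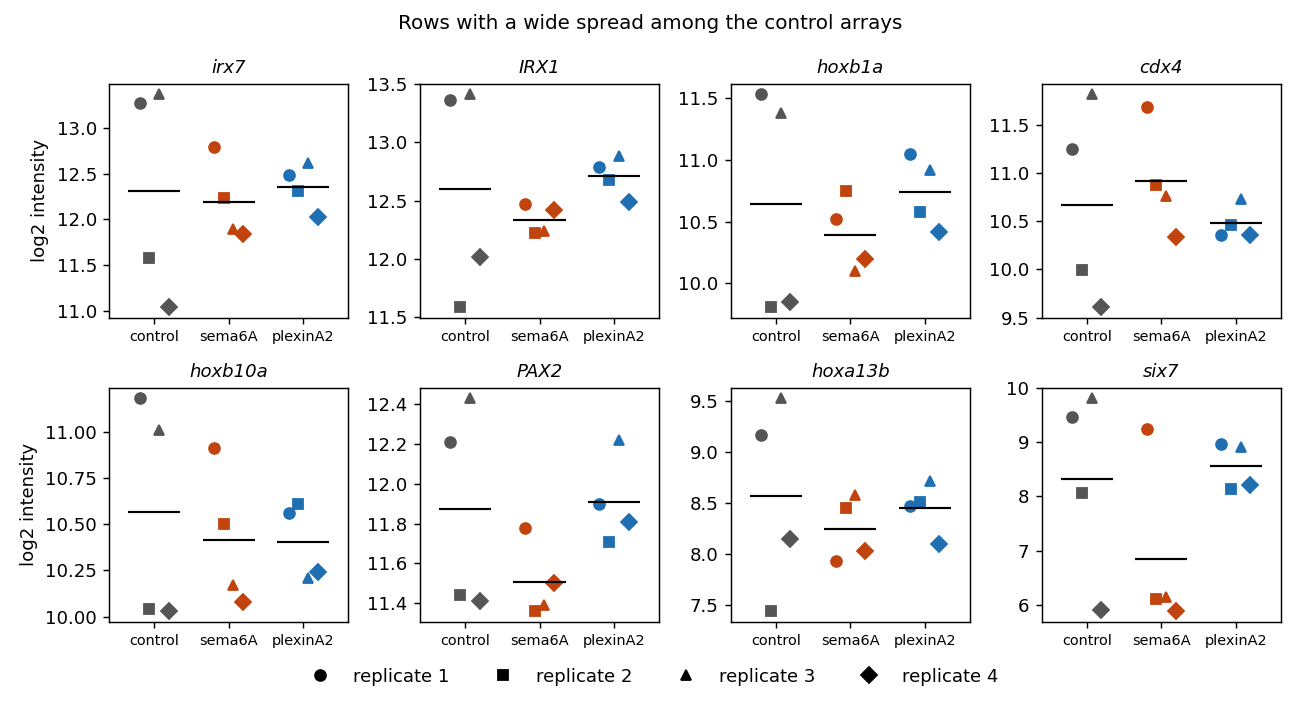
Log2 intensity (y axis) of 8 rows, picked after their values were seen, on each array of the 3 groups (x axis). Symbols are replicates 1 to 4 and black lines are group means. The controls do not spread widely in every row: their range is 1.02 in PAX2 and 3.89 in six7. In all 8 rows control replicates 1 and 3 lie above 2 and 4, and the plexinA2 arrays lie in a narrower range than the controls.

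Genes that act with these factors were read from the same fit. In that fit 1.13% of all rows fell and 1.99% rose in sema6A morphants, and 2.86% were called in plexinA2 morphants. Of 14 rows for signals that set the head-to-tail axis (retinoic acid, Wnt, Fgf and Hedgehog genes, and gdf11), 1 fell in sema6A morphants, 0 rose, and none passed in plexinA2 morphants. It was 1 of 2 rows of DHRS3, an enzyme that turns retinaldehyde back to retinol and so limits retinoic acid, with log2 intensities of 10.82, 11.24, 10.51 and 10.46 in controls, 9.52, 9.62, 9.66 and 9.78 in sema6A morphants, and 10.40, 10, 9.93 and 10.14 in plexinA2 morphants. The sema6A arrays lay below both other groups, at a log2 difference of −1.11 ± 0.27 (adjusted p = 0.0295; limma, n = 4 per group), and the call was lost in 5 of 12 fits without an array (control replicate 1, sema6A replicates 1 to 3 or plexinA2 replicate 4), with an adjusted p of up to 0.0861, and at 0.126 when plexinA2 arrays were left out. The plexinA2 arrays of that row also lay below every control, at a log2 difference of −0.64 ± 0.27 that did not pass (limma, adjusted p = 0.237). The other DHRS3 row differed by 0.46 ± 0.55 in sema6A morphants (limma, adjusted p = 0.682, n = 4 per group) and by −0.08 in plexinA2 morphants. RXRA, a retinoid receptor, differed by −0.83 in sema6A morphants (adjusted p = 0.128), and WNT3A and WNT8B by 0.97 and 0.92 in plexinA2 morphants (adjusted p = 0.19 and 0.175).

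Of 31 rows for homeobox genes outside the name rule, 1 fell in sema6A morphants, against 1.13% of all rows, and none passed in plexinA2 morphants. In sema6A morphants 25 had a log2 difference below 0, against 45.1% of all rows. Their median was −0.31, beside 0.06 over all rows. The called row was a row of DBX1, of spinal interneuron progenitors, at −1.33 ± 0.35 (adjusted p = 0.047), a call lost in 10 of 12 fits without an array (all but those without control replicate 3 or sema6A replicate 4), with an adjusted p of up to 0.107; its other row differed by −0.84 (adjusted p = 0.12; limma, n = 4 per group). Among 8 rows for hindbrain partners of hox genes none passed in either morphant. The medians of these rows were −0.378 in sema6A morphants and 0.315 in plexinA2 morphants. All 8 were lower in sema6A than in plexinA2 morphants, against 49.8% of all rows, and none passed there. EGR2, which sets up hindbrain segments and switches on hoxb2, differed by −1.02 in sema6A morphants (limma, adjusted p = 0.127). Among 10 rows of posterior mesoderm and tailbud genes none passed. Their medians were −0.37 in sema6A morphants and −0.23 in plexinA2 morphants, beside 0.06 and 0.04 over all rows.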

How the data were processed

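Total RNA was extracted with Trizol and hybridized to 1-colour (Cy3) NimbleGen arrays, per the labels. RMA is named, without a version, in the submitters' processing notes. The authors deposited linear intensity values between 26.3 and 42222. RMA narrows differences between dim rows, and levels were not compared between rows. Array number limits the precision. The annotation and genome build are not given in the sources used here. Gene symbols came from a table that pairs Ensembl gene IDs with names; 4349 of 5134 rows had a name.

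Values were taken to log2 with no pseudocount and no filter, and the 3 contrasts among 12 arrays were tested by moderated statistics (lmFit and eBayes of limma, version 3.58.1, under R 4.3.3), two-sided, with Benjamini-Hochberg adjustment over 5134 rows and a threshold of 0.05. The fit was tested on simulated data. The 2 contrasts against control share the control arrays. Each row had a single estimate of spread over the 3 groups, drawn toward that of all rows. An SE or p is therefore not the spread of the 2 groups compared alone. With only the compared groups fitted, calls over all rows went from 160 to 47 in sema6A morphants and from 147 to 132 in plexinA2 morphants. Between the morphants they went from 88 to 743. Values on every array are given for hox, cdx and otx rows, for called rows, and for the 8 rows of smallest p in each morphant contrast and the 6 between morphants; further rows (NKX2-1, IRX5, six7 and irx7 among them) were picked after their values were seen. Members, region lists and marker lists were chosen with earlier results of these data known, so medians and counts over lists carry no test. Values of 1 member are not reported here. Correlations of deviations between same-numbered arrays ran from −0.24 to 0.36, so replicate numbers were not taken to pair arrays. Alternatives were a fit of the compared groups only, a replicate block, a filter on the dimmest 25% of rows (46 of the 51 members stay), quantile normalization, median centring, a pseudocount of 50, array weights, a trended robust prior and leaving out arrays; the counts of rows below 0 were put through them after the data were seen.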

Additional observations from a re-analysis of the deposited data

Results flagged for a closer look

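Of 159 sets of 4 arrays tested (each of 51 rows and the head and trunk levels, in each group), 9 held an array that stood far from the other 3, and chance gives about 1 in 20. In the sema6A group these were 9.24 for six7 on replicate 1, where the others read 5.88 to 6.14, 10.58 for irx5b on replicate 1, where the others read 11.37 to 11.54, and −0.76 for the level of the head rows on replicate 1, where the others were −0.21 to −0.10. In the control group they were 9.72 for otx2a on replicate 4 (others 10.47 to 10.63), 11.06 for pbxip1a on replicate 4 (others 9.82 to 10.02), 9.18 for DLX5 on replicate 2 (others 10.04 to 10.20) and 10.59 for hoxc3a on replicate 2 (others 11 to 11.08). In the plexinA2 group they were 8.62 for NKX2-5 on replicate 1 (others 9.22 to 9.33) and 7.36 for nkx2.9 on replicate 3 (others 7.69 to 7.75). All are log2 intensities except the head level, which is a log2 deviation.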

How the results depend on the processing

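The count of members called in sema6A morphants against controls was 2. It was 0 when only those groups were fitted (against 0.915% of all rows) and 19 with array weights (37.3%, against 27.4%). Without control replicate 2 and sema6A replicate 1 together it was 5 (9.8%, against 4.27%). Without single arrays it was 0 to 4. The 0 was without sema6A replicate 2 (against 1.29%) and the 4 without sema6A replicate 4 (7.84%, against 4.4%). In plexinA2 morphants the count of 0 became 13 with array weights (25.5%, against 31.7% of all rows) and 0 to 2 without single arrays. The 2 were nkx2.9 and pbxip1a, in the fit without control replicate 4 (3.92%, against 6.35% of all rows). Between the morphants the count of 0 became 7 with only those groups (13.7%, against 14.5% of all rows). It was 1 with a pseudocount of 50 (1.96%, against 2.65%) and 21 with array weights (41.2%, against 44.3%). Without control replicate 2 and sema6A replicate 1 it was 11 (21.6%, against 17.1%). Without single arrays it was 0 to 5, with 4 after sema6A replicate 1 was dropped (7.84%, against 3.06%). After control replicate 2 was dropped it was 5 (9.8%, against 9.64%). After control replicates 3 and 4 were dropped it was 1 (1.96%, against 2.03%) and 2 (3.92%, against 4.83%). With the replicate number as a block the counts were 2, 0 and 1, against 3.08%, 2.53% and 2.8% of all rows. The last was pbxip1b, and no other call changed. Array weights ran from 0.158 (control replicate 2) to 4.82 (plexinA2 replicate 4), and with them the calls over all rows rose from 160 to 1407 in sema6A morphants; the cause was not tested. The head median in sema6A morphants was −0.57 to −0.29 without single arrays. In plexinA2 morphants it was −0.22 after median centring, which moved the median of all rows by −0.11, −0.27 with array weights and 0.035 without dlx rows; the trunk median was −0.13 without hox groups 1 to 4. Between the morphants the head median was −0.16 with array weights. The log2 difference of hoxb1a in plexinA2 morphants turned from 0.10 to −0.70 with array weights (adjusted p = 0.0418, limma). Members below 0 numbered 41 to 45, 23 to 30 and 40 to 44 without single arrays in the 3 comparisons. With array weights they numbered 40 in sema6A morphants, 36 in plexinA2 morphants and 36 between the morphants. The median log2 differences of all rows in that setting were 0.161, 0.081 and 0.025.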
